A study of Mus musculus with 721 samples.

Results

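The genes described here are 10 members of the fibroblast growth factor (FGF) family in the early mouse embryo, the ligands Fgf3, Fgf4, Fgf5, Fgf8, Fgf10 and Fgf15 and the receptors Fgfr1, Fgfr2, Fgfr3 and Fgfr4. They were found by symbol among the 24483 gene rows of a single-cell count table, in which each of the 10 has 1 row. The table holds polyA RNA read by Smart-seq2 from 721 wells of cells picked from wild type C57Bl/6Babr mouse embryos, with no treatment named in the labels. It covers the inner cell mass at embryonic day 3.5 (E3.5, 99 cells from 10 embryos), and E4.5 (105 cells from 5 embryos), E5.5 (267 cells from 9 embryos) and E6.5 (250 cells from 13 embryos). The trophectoderm had been lysed at E3.5 and E4.5, and extra-embryonic ectoderm was cut away at E5.5, so these samples leave out most trophoblast. The E5.5 embryos were early ones in which the anterior visceral endoderm had not yet moved. At E6.5 the embryonic portion of early streak embryos was used, and 2 of the 13 embryos are titled E6.75. Embryos were told apart by the sample titles, and 9 cells at E3.5 whose titles give no embryo number were taken as 1 embryo. The titles give more embryos than the study's own description, so that some sums counted as separate replicates may come from the same embryo.

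FGF ligands are secreted proteins that bind receptor tyrosine kinases on the cell surface together with heparan sulphate, and the bound receptor passes the signal through Ras to the MAP kinase Erk. In the blastocyst this pathway is known for the choice between epiblast and primitive endoderm (PrE), with Fgf4 made by epiblast precursors and read by the rest of the inner cell mass. After implantation, FGF signalling is known for the exit from naive pluripotency and for the movement of cells through the primitive streak.

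Cells were grouped by clustering with these 10 genes, and the pathway genes described further on, held out. At E4.5 there were 82 PrE-like and 23 epiblast-like cells, and no E4.5 cell was left out. The study reports a small E4.5 population with markers of both lineages and set it aside. Such cells were not set apart here, and their part in the E4.5 values was not tested. The E5.5 cells split into 259 that were epiblast-like and 8 that were endoderm-like, and the E6.5 cells into 179 epiblast-like, 41 endoderm-like and 25 primitive streak-like ones, with 5 left unnamed. E3.5 cells were kept as 1 group. Total counts per cell ran from 66896 to 3792936, and 128 wells labelled as double, because 2 cells were seen in picking, were kept (38 of them at E4.5). Summed over 23 endoderm markers, E4.5 PrE-like sums held 13410 to 21520 CPM (counts scaled to the size of the library) and E4.5 epiblast-like sums 1502 to 3467. Endoderm markers reached 13210 to 39100 CPM in E6.5 endoderm-like sums, against 741.9 to 7053 in E6.5 epiblast-like sums, of which embryo 9 of plate P3 was the highest. Summed trophoblast markers (9 genes) lay between 156.9 and 966.5 CPM at E3.5, with Ascl2 at 0, between 63.98 and 446.1 at E4.5 and between 2.571 and 210.3 at E6.5, and their part in the values at E3.5 was not tested. Plates and stages coincide for most embryos, and the 2 cannot be told apart in a comparison of stages.

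Within each embryo, the counts of all cells of a group were added up if there were at least 3 such cells. This gave 49 sums, and the embryo is the replicate throughout, so that p values measure the spread between embryo sums. Where both groups of an embryo were compared, their sums entered the main test unpaired. The embryo as a block, which pairs them, was an alternative. Levels are TMM-normalized CPM of these sums. A gene was called in a comparison at an adjusted p of at most 0.05 in edgeR's quasi-likelihood test, with a log2 fold change over 2 between the E4.5 lineages and over 1 elsewhere.

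Fgf3 (chr7:144838612-144843348), Fgf4 (chr7:144861386-144865245) and Fgf15 (chr7:144896532-144900953) lie next to each other on the forward strand of chromosome 7 in GRCm38. Fgf5 and Fgfr3 are on chromosome 5, Fgf10 and Fgfr4 on 13, Fgf8 on 19, Fgfr2 on 7 and Fgfr1 on 8, where the gene Gm16159 overlaps it and could share its reads. RefSeq (GRCm38.p6) gave the bases upstream of the start of 7 of the 10 genes, and Fgf8, Fgf15 and Fgfr1 had no entry. The 250 bases before the start are shown for Fgf4, which was the epiblast-side ligand at E4.5, and for Fgf3, Fgf10 and Fgfr3, which were on the PrE side. They are written in the direction of the gene, with matches to GGGCGG (the core of a GC box) or TATAAA (the core of a TATA box) on either strand in capitals. For Fgf4 the stretch is chr7:144861136-144861385 (+), for Fgf3 chr7:144838362-144838611 (+), for Fgf10 chr13:118714449-118714698 (+) and for the first of 2 listed starts of Fgfr3 chr5:33721474-33721723 (+). The gene rows of the count table name starts further upstream for Fgf3 (144838083) and Fgf10 (118669791). The stretches of both genes thus lie downstream of those starts.
Fgf4: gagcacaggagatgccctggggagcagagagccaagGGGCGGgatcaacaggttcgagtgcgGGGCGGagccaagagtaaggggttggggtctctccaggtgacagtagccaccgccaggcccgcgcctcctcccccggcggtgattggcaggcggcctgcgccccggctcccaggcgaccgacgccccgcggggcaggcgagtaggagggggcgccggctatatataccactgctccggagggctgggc
Fgf3: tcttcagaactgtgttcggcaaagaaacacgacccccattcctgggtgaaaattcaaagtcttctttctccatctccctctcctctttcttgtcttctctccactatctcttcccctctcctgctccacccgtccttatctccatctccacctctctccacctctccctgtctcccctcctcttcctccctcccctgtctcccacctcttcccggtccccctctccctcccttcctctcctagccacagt
Fgf10: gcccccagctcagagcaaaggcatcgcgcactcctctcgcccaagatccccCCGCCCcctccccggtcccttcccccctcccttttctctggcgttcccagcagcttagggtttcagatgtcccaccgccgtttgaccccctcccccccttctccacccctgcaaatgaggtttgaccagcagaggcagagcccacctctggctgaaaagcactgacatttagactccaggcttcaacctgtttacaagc
Fgfr3: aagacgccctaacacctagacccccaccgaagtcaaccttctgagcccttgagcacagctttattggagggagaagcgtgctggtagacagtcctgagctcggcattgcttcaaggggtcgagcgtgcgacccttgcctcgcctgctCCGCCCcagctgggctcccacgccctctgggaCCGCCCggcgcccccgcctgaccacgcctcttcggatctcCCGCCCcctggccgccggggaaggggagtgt
The Fgf4 stretch held 2 matches to GGGCGG and the Fgfr3 stretch 3, Fgf10 held 1, and Fgf3 held none. TATAAA was found in none of the 4 stretches, and the matches in capitals do not overlap each other. Among 32851 RefSeq stretches of the same length, 32.74% held GGGCGG and 12.37% held TATAAA. The share of G and C was 71.2% for Fgf4 and 55.2% for Fgf3, against a median of 52.4% over all stretches. A match is a match of letters and not a measured site.

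At E4.5, the epiblast-like and PrE-like cells of the same 5 embryos carried different FGF genes. Fgf4 and Fgfr1 were higher in epiblast-like cells, and Fgf3, Fgf10, Fgfr2, Fgfr3 and Fgfr4 in PrE-like cells. Of the 10 members 8 passed the filter on low counts and 7 were called, 5 of them higher in PrE-like cells, where 8.05% of the 10011 genes tested were called. For each of these 7 genes, the 5 PrE-like sums and the 5 epiblast-like sums did not overlap, and the direction was the same in 5 of 5 embryos. The 7 had been picked by their calls, and the share of all tested genes without overlap was not computed. The lack of overlap therefore describes these genes and adds no support to their calls. Fewer cells with a transcript and less RNA per cell cannot be told apart in such sums, and the shares of cells are given further on.

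The ligand Fgf4 reached 160.9, 111.8, 136.4, 121.5 and 199.1 CPM in the epiblast-like sums of embryos 1 to 5. In PrE-like sums of the same embryos it was at 5.25, 4.653, 16.49, 12.04 and 16.95 CPM. Every epiblast-like sum lay above every PrE-like sum, and the log2 difference, PrE-like minus epiblast-like, was -3.74 ± 0.42 (SE, adjusted p = 5.983e-05 in edgeR). Fgf3, a ligand best known from later inner ear and tail development, showed the opposite pattern. It was at 113.5, 53.61, 98.75, 82.04 and 42.88 CPM in PrE-like sums and at 8.914, 0, 5.414, 0 and 0 CPM in epiblast-like sums. The epiblast-like sums of 3 embryos had no Fgf3 count, and the log2 difference was 4.77 ± 1.05 (adjusted p = 0.006469, edgeR).

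Fgf10, the ligand of lung and limb buds that acts through a form of Fgfr2, was at 53.96, 31.36, 99.09, 78.63 and 86.76 CPM in PrE-like sums. In epiblast-like sums it had counts in embryo 4 alone, at 2.825 CPM. The log2 difference was 6.59 ± 1 (adjusted p = 0.0004862, edgeR), and with Ward clustering in place of the consensus clusters it was 3.34 with an adjusted p of 0.07193. Fgf5, whose RNA is a usual marker of the postimplantation epiblast, was already found in PrE-like sums, at 82.98, 37.63, 10.13, 16.4 and 11.13 CPM. In epiblast-like sums it was at 83.2 CPM in embryo 1, at 4.17 CPM in embryo 5 and at 0 in the other three. The 2 groups overlapped and the log2 difference of 0.86 ± 1.37 did not pass (adjusted p = 0.7477, edgeR).

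Fgf8 and Fgf15 were too low to be tested between the E4.5 lineages. Fgf8, a ligand of the later streak and limb, stood at 1.896, 0, 1.03, 0 and 34.85 CPM in PrE-like sums and had no count in any of the 5 epiblast-like sums. Its PrE-like mean was at least 38.87-fold higher than 3 counts over the epiblast-like group, and most of it came from embryo 5. Fgf15, the mouse counterpart of human FGF19, was at 21.65, 0, 0, 6.084 and 10.54 CPM in epiblast-like sums and above 0 in the PrE-like sums of embryos 2 and 5, at 1.821 and 2.047 CPM.

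Of the receptors, Fgfr1 was the epiblast-side gene, with 85.75, 68.99, 56.17, 44.32 and 64.97 CPM in epiblast-like sums. The PrE-like sums held 19.54, 5.462, 19.41, 3.871 and 9.763 CPM. They lay below the epiblast-like sums in each embryo, with a log2 difference of -2.47 ± 0.53 (adjusted p = 0.005521, edgeR). Fgfr2, which marks PrE precursors in the blastocyst, was at 34.27, 43.9, 74.53, 47.66 and 12.33 CPM in PrE-like sums and at 8.49, 1.586, 9.474, 3.476 and 7.682 CPM in epiblast-like sums. The groups stood closest here, with 12.33 CPM as the lowest PrE-like and 9.474 as the highest epiblast-like sum, and the log2 difference was 2.75 ± 0.64 (adjusted p = 0.009308, edgeR).

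Fgfr3, a receptor better known from growing cartilage, was at 147.3, 102, 141.7, 75.31 and 119.2 CPM in PrE-like sums. In epiblast-like sums it was found in embryo 1 only, at 7.641 CPM. The log2 difference was 6.38 ± 1.07 (adjusted p = 0.001024, edgeR). Fgfr4, a receptor of endodermal organs such as the liver, was lower but split the same way, with 28, 9.71, 6.698, 6.036 and 10.6 CPM in PrE-like sums against a single value above 0, of 0.4345 CPM, among epiblast-like sums. Its log2 difference was 6.58 ± 1.26 (adjusted p = 0.002487, edgeR). With the embryo as a block, which pairs the 2 lineages of an embryo, the same number of members, 7, was called, among 883 genes called.

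**Figure D1:**
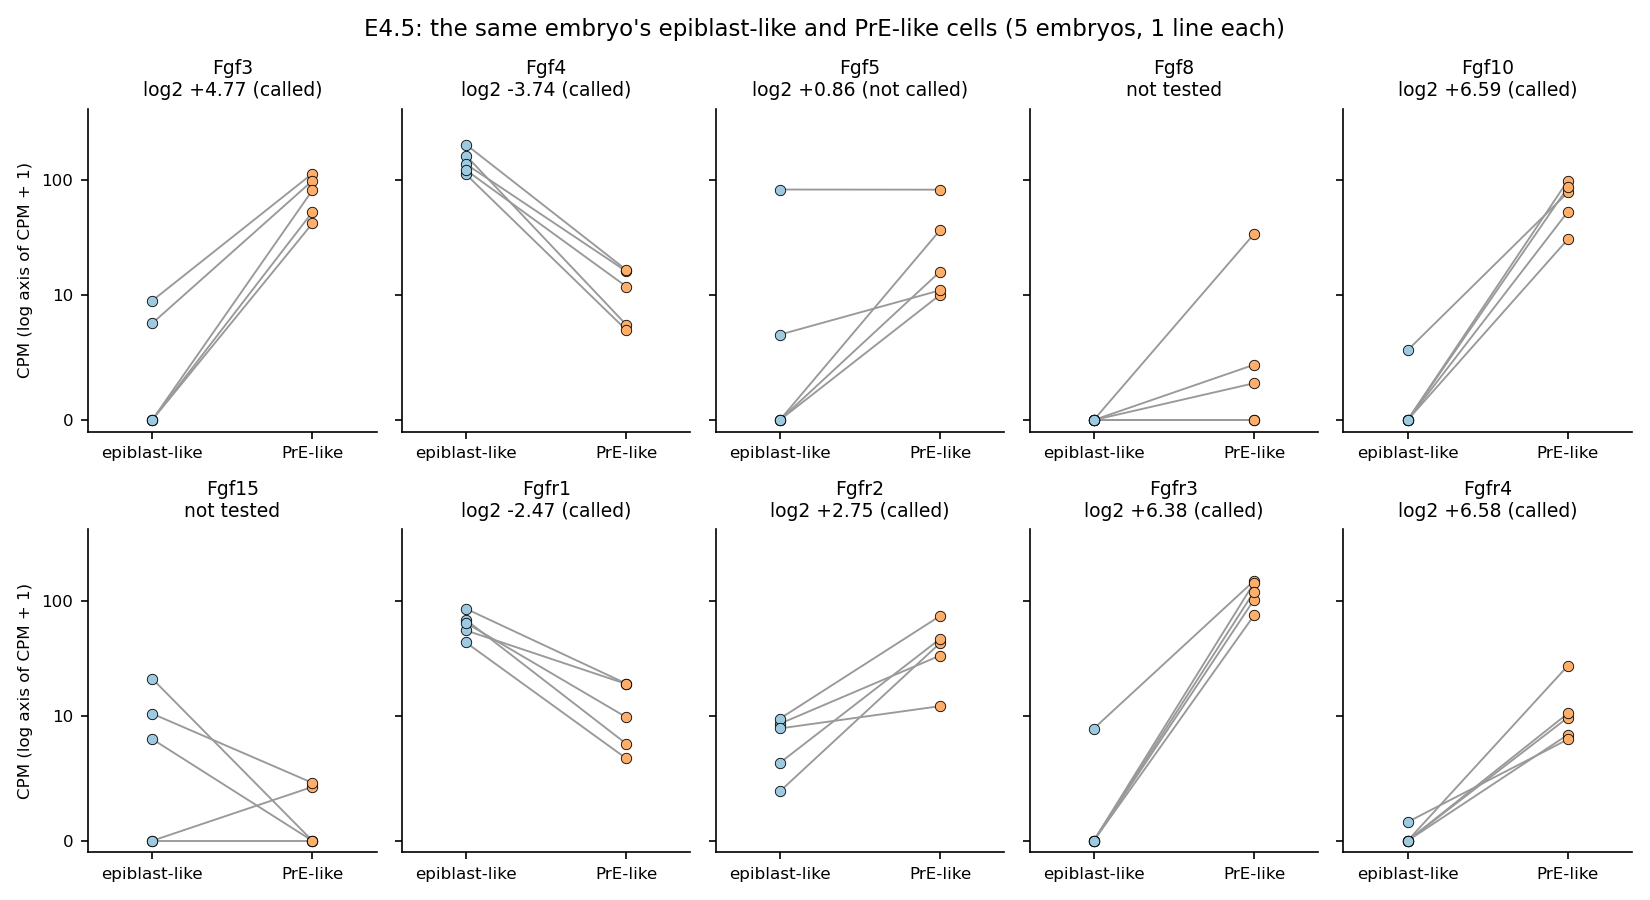
Levels of the 10 genes at E4.5 in CPM (log axis), with 1 point for each embryo and lineage and a line joining the epiblast-like and PrE-like sums of the same embryo (n = 5). The lines of Fgf4 and Fgfr1 fall towards PrE-like cells in 5 of 5 embryos, and those of Fgf3, Fgf10, Fgfr2, Fgfr3 and Fgfr4 rise in 5 of 5.

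Against the E3.5 inner cell mass, the E4.5 PrE-like cells had gained Fgf3, Fgf5, Fgf8 and Fgfr3 and lost Fgfr1. Of 9 members tested 5 were called, where 13.4% of 11365 genes were. At E3.5 Fgf3 ranged from 0 to 11.29 CPM (median 0.2522, n = 10), below all 5 PrE-like sums, and the log2 difference was 5.08 ± 1.21 (adjusted p = 0.006112, edgeR). No Fgf5 or Fgf8 count was found in any of the 10 E3.5 sums. Their PrE-like means were at least 616.4-fold and at least 147.1-fold higher than 3 counts over the E3.5 group (adjusted p = 9.832e-07 and 0.004622, edgeR). The rise of Fgf8 rested on embryo 5, without which its adjusted p was 0.05292.

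Fgfr3 was at 0 in 9 of the 10 E3.5 sums and at 1.6 CPM in the other one, so that all 5 PrE-like sums stood above them, with a log2 difference of 9 ± 1.25 (adjusted p = 9.699e-06, edgeR). Fgfr1 ranged from 38.61 to 222.9 CPM at E3.5 (median 79.03), above every PrE-like sum, and the log2 difference was -3.06 ± 0.67 (adjusted p = 0.002031, edgeR). Fgf4 ranged from 2.696 to 207.8 CPM at E3.5 (median 64.15) and overlapped the PrE-like sums, with a log2 difference of -2.84 ± 1.2 (adjusted p = 0.1225, edgeR; DESeq2 gave 0.03567). Fgf10 ranged from 10.06 to 415.6 CPM (median 92.31), and Fgfr2 from 0 to 60.04 CPM (median 20.9). Both overlapped the PrE-like sums, with log2 differences of -0.9 ± 0.59 and 0.62 ± 1.02 (adjusted p = 0.3825 and 0.7881, edgeR).

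In the epiblast-like cells of E4.5 the change from E3.5 was another one, since Fgf10 was lost and Fgf5 and Fgf15 were gained. Of 8 members tested 3 were called, where 22.2% of 13180 genes were, and Fgf8, at 0 in both groups, was one of the 8. Fgf10 was at 0 in 4 of 5 epiblast-like sums and above 10 CPM in all 10 E3.5 sums, and its log2 difference was -7.55 ± 1.8 (adjusted p = 0.001784, edgeR). With Ward clustering it was -4.18 with an adjusted p of 0.05321. Fgf5 and Fgf15 had no count at E3.5, and the E4.5 epiblast-like means were at least 340.3-fold and at least 149-fold higher than 3 counts over that group (adjusted p = 4.013e-07 and 7.55e-06, edgeR). The value of Fgf5 came mostly from embryo 1. Without that embryo the mean of the other 4 was 1.043 CPM, from embryo 5 alone, the bound was at least 20.3-fold, and the fitted log2 difference was 6.93 (adjusted p = 1.987e-05).

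Fgf4, Fgfr1 and Fgfr2 did not pass between E3.5 and E4.5 epiblast-like cells. The mean of Fgf4 was 75.8 ± 56 CPM (SD, n = 10) at E3.5 and 145.9 ± 35.01 (n = 5) at E4.5, with a log2 difference of 0.9 ± 0.69 (adjusted p = 0.3774, edgeR). Fgfr1 went from 92.83 ± 52.82 to 64.04 ± 15.39 CPM (log2 difference -0.6 ± 0.41, adjusted p = 0.3188, edgeR). The E3.5 sums of these genes spread widely and enclosed all or part of the E4.5 range. Fgfr2 went from 26.46 ± 22.04 to 6.142 ± 3.422 CPM, with a log2 difference of -2.16 ± 0.96 that did not pass in edgeR (adjusted p = 0.09866) and passed in DESeq2 (0.02593).

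From E4.5 to E5.5 the ligand Fgf8 rose in epiblast-like cells. Of 8 members tested it alone was called, where 6.78% of 13180 genes were. The 8 E5.5 epiblast-like sums held Fgf8 at 2.825 to 16.5 CPM (median 7.627), all above the E4.5 sums at 0, and their mean was at least 46.22-fold higher than 3 counts over the E4.5 group (adjusted p = 4.573e-05, edgeR). Fgf5 ranged from 47.62 to 74.35 CPM at E5.5 (median 58.11), within the range of the E4.5 sums because of embryo 1 there. Its log2 difference of 1.74 ± 0.84 did not pass (adjusted p = 0.2278, edgeR), whereas without E4.5 embryo 1 it was 5.57 with an adjusted p of 2.151e-05, 1 embryo thus deciding the call.

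Fgf4 ranged from 52.02 to 103.2 CPM at E5.5 (median 74.37), below all 5 E4.5 epiblast-like sums. The log2 difference was -0.97 ± 0.73 and did not pass (adjusted p = 0.5107, edgeR). Fgf15 ranged from 7.62 to 28.02 CPM (median 18.79) and overlapped E4.5 (log2 difference 1.15 ± 1.05, adjusted p = 0.6195). Fgfr1 was at 64.52 ± 15.68 CPM (SD, n = 8) at E5.5 against 64.04 ± 15.39 at E4.5, a log2 difference of -0.02 ± 0.42 (adjusted p = 0.9949, edgeR). Fgfr2 stayed low, at 3.065 to 10.38 CPM (median 4.11).

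Between E5.5 and E6.5 the make-up of ligands in epiblast-like cells changed, with Fgf5 found at both ages. Of 8 members tested 4 were called, where 7.94% of 13180 genes were, with Fgf4 and Fgf3 lower and Fgf8 and Fgf10 higher at E6.5. Fgf4 ranged from 0 to 29.8 CPM in the 12 E6.5 epiblast-like sums (median 11.7), below all 8 sums of E5.5. The log2 difference was -2.63 ± 0.6 (adjusted p = 0.002425, edgeR). Fgf8 ranged from 9.096 to 150.2 CPM at E6.5 (median 66.42), and the embryos of plate P3 numbered 7 and 9 were the 2 that overlapped the E5.5 sums. Its log2 difference was 3.1 ± 0.57 (adjusted p = 0.0006621, edgeR).

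Fgf10 was near 0 at E5.5 (0 to 0.6592 CPM, median 0) and ranged from 0 to 117.3 CPM at E6.5 (median 2.821). Its log2 difference was 6.65 ± 1.37 (adjusted p = 0.0008966, edgeR). The highest sum came from embryo 7 of plate P3, in which the summed endoderm markers were at 1237 CPM, and without it the log2 difference was 4.79 (adjusted p = 0.003079). Fgf3 fell from a range of 0 to 2.545 CPM (median 1.323) to 0 in 10 of the 12 E6.5 sums, with 5 counts in all, and its log2 difference of -5.1 ± 1.34 (adjusted p = 0.009607, edgeR) concerns a gene at the limit of detection in both groups.

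The E6.5 embryos fall into 8 sums from plates P1 to P3 and 4 sums from embryos whose titles name no plate, among them those titled E6.75. Taken separately, these gave log2 differences of -2.77 (adjusted p = 0.008962) and -2.43 (0.01557) for Fgf4 and 3.06 (0.004198) and 3.12 (0.02223) for Fgf8 against E5.5 in edgeR. Those of Fgf10 were 7.15 (0.0004625) and 3.98 (0.04456). The fall of Fgf3 passed with plates P1 to P3 (-4.84, 0.04489) and not with the others (-5.81, 0.2583). Plate and titled age coincide only in part in this split, since some sums without a plate name are titled E6.5. These held Fgf4 at 10.56 and 13.04 CPM and Fgf8 at 120.2 and 60.37 CPM. The sums titled E6.75 held Fgf4 at 12.84 and 18.79 CPM and Fgf8 at 57.47 and 68.82 CPM. The part of each was not tested.

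Fgf5 ranged from 86.66 to 223.5 CPM at E6.5 (median 178.5), above each of the 8 sums at E5.5. Its log2 difference of 1.53 ± 0.65 did not pass (adjusted p = 0.1455, edgeR). Fgf15 ranged from 0 to 55.32 CPM (median 13.53), Fgfr1 from 9.863 to 79.88 CPM (median 53.64) and Fgfr2 from 0.1957 to 30.67 CPM (median 5.291), and all 3 overlapped E5.5. Their log2 differences were 0.15 ± 0.81, -0.37 ± 0.33 and 0.81 ± 0.73 (adjusted p = 0.949, 0.5472 and 0.5565, edgeR).

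**Figure D2:**
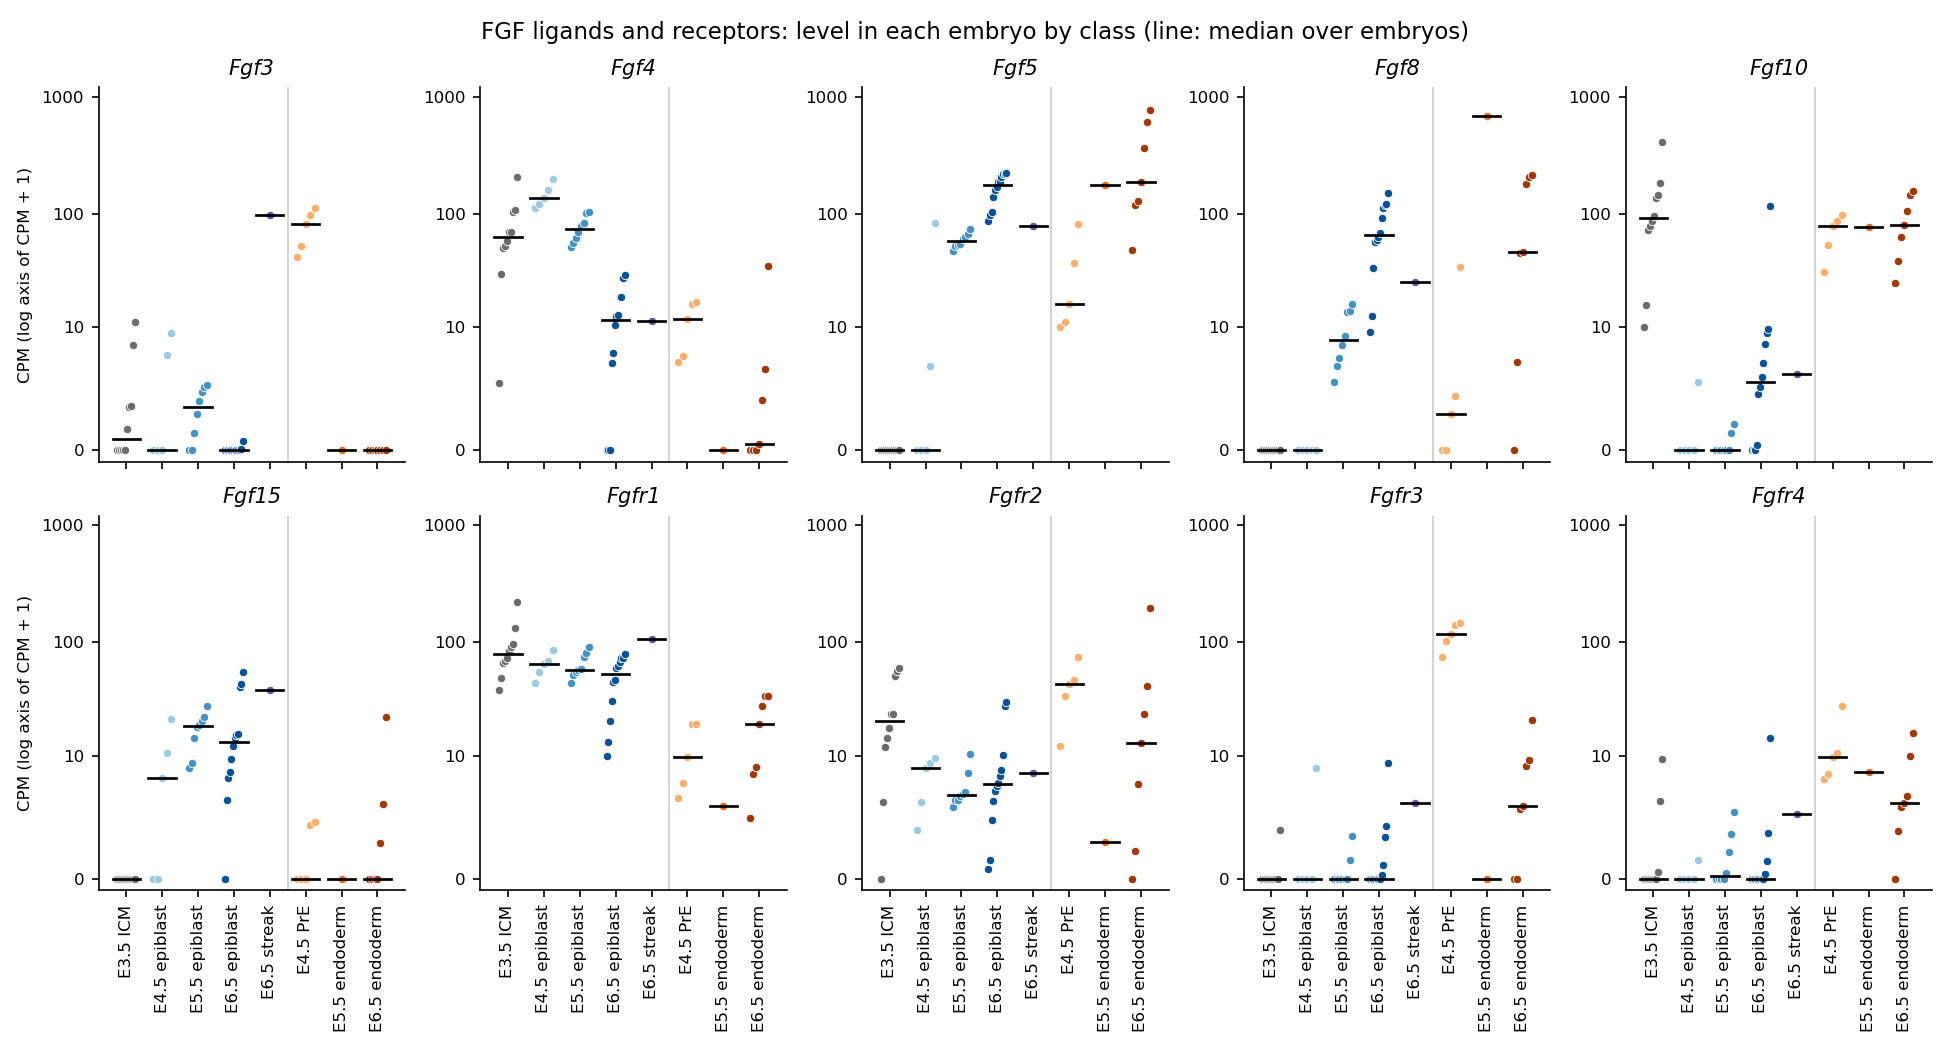
Levels of the 10 genes in CPM (log axis) in each group of cells, with 1 point for each embryo sum and a line at the median. Fgf4 falls from a mean of 145.9 CPM in E4.5 epiblast-like sums to 11.86 CPM in E6.5 epiblast-like sums. The mean of Fgf5 is 17.47 CPM in the former, mostly from embryo 1, and 167.2 CPM in the latter. Neither step of Fgf5, from E4.5 to E5.5 or from E5.5 to E6.5, was called. Fgfr3 stands out in E4.5 PrE-like sums at a mean of 117.1 CPM.

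Along the endoderm, Fgf3 and Fgfr3 were high at E4.5 and low at E6.5, and Fgf5 went the other way. Of 9 members tested between E6.5 endoderm-like and E4.5 PrE-like sums 3 were called, where 7.66% of 11365 genes were. Fgf3 had no count in any of the 7 E6.5 endoderm-like sums, and the mean of 78.15 CPM at E4.5 was at least 837.1-fold higher than 3 counts over them (adjusted p = 0.0006161, edgeR). Fgfr3 ranged from 0 to 21.17 CPM at E6.5 (median 3.119), below all 5 PrE-like sums, with a log2 difference of -4.15 ± 1.18 (adjusted p = 0.02688, edgeR). Without E4.5 embryo 1 or embryo 3 the adjusted p of Fgfr3 was 0.06195 or 0.05839.

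Fgf5 ranged from 48.68 to 775.7 CPM in E6.5 endoderm-like sums (median 189.5), and only the lowest of them, from E6.75 embryo 1, fell below the highest PrE-like sum. The log2 difference was 3.38 ± 0.77 (adjusted p = 0.01041, edgeR), and with single cells only the adjusted p was 0.0526. Fgf8 ranged from 0 to 216.9 CPM (median 47.45) and overlapped the PrE-like sums (log2 difference 3.78 ± 1.71, adjusted p = 0.2168, edgeR). Without E4.5 embryo 5 it was 7.08 with an adjusted p of 0.04136.

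Fgf10 and Fgfr2 were found at both ages of the endoderm. Fgf10 ranged from 25.23 to 157.7 CPM at E6.5 (median 80.91) around an E4.5 range of 31.36 to 99.09 CPM, and its log2 difference was 0.41 ± 0.62 (adjusted p = 0.7956, edgeR). Fgfr2 ranged from 0 to 197.9 CPM (median 13.03), with the top value in embryo 7 of plate P3, whose sum held 3 cells, and its log2 difference was 0 ± 1.11. The 2 endoderm-like sums that have no plate name are those of the embryos titled E6.75. With these as the only E6.5 samples, none of the 3 calls remained (adjusted p = 0.1002 for Fgf3, 0.6631 for Fgf5 and 0.4456 for Fgfr3, edgeR), while with the 5 from plates P1 to P3 all 3 passed. Plate and titled age cannot be told apart here.

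Within the E6.5 embryo no member was called between endoderm-like and epiblast-like sums by edgeR, where 10.8% of 14937 genes were called. Of the 10 members 4 had an unadjusted p under 0.05, as had 4970 of the 14937 genes. DESeq2 called 2 members, Fgf5 and Fgf10, among 1958 genes called. Fgf10 was closest to the limit. It ranged from 25.23 to 157.7 CPM in endoderm-like and from 0 to 117.3 CPM in epiblast-like sums, was higher in the endoderm-like sum in 6 of 7 embryos, and had a log2 difference of 2.87 ± 0.98 (adjusted p = 0.05329, edgeR). In embryo 7 of plate P3 the order was the opposite one, with 117.3 CPM in its epiblast-like and 25.23 CPM in its endoderm-like sum. Without its epiblast-like sum the log2 difference was 4.68 with an adjusted p of 0.0008713, so that 1 sum decided the call. In embryos of plates P1 to P3 alone it was 2.61 (0.2546), and in those with no plate name, whose endoderm-like sums are titled E6.75, 4.74 (0.01375).

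Fgf5 was at 321 ± 277.6 CPM (SD, n = 7) in endoderm-like and 167.2 ± 49.94 CPM (n = 12) in epiblast-like sums, higher in 4 of 7 embryos (log2 difference 1 ± 0.37, adjusted p = 0.07207, edgeR). Fgf8 was at 100.6 ± 97.15 and 75.3 ± 44.83 CPM and higher in 3 of 7 (0.47 ± 0.68, adjusted p = 0.6977). The endoderm-like sums of both genes enclosed the epiblast-like range. Their direction turned in the embryos without a plate name, whose endoderm-like sums are titled E6.75. The log2 differences there were -0.69 for Fgf5 and -1.72 for Fgf8, against 1.28 and 0.87 in plates P1 to P3. That of Fgf8 was -0.6 with the embryo as a block. Summed epiblast markers (14 genes, none at 0) were at 826 to 2613 CPM in these endoderm-like sums and at 3832 to 5955 CPM in the epiblast-like sums, and their part in the levels of Fgf5 and Fgf8 was not tested.

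Among the receptors, Fgfr1 was lower in the endoderm-like sum in 7 of 7 embryos, at 19.05 ± 13.65 against 48.85 ± 24.9 CPM, and the groups overlapped (log2 difference -1.32 ± 0.55, adjusted p = 0.1001, edgeR). Fgfr2 was at 40.46 ± 71.03 and 8.691 ± 10.12 CPM, higher in 4 of 7 embryos (2.28 ± 0.95, adjusted p = 0.09925), and its log2 difference was -0.98 in the embryos without a plate name. Fgfr3 was at 6.339 ± 7.448 and 1 CPM (adjusted p = 0.2009), and without the epiblast-like sum of embryo 9 of plate P3, which held the most endoderm marker RNA, its log2 difference was 4.26 with an adjusted p of 0.04934.

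With the embryo as a block, 580 genes were called in place of 1612 and again no member. One endoderm-like sum, from embryo 6 of plate P2, held 1551.1 CPM of the haemoglobin genes Hba-a1 and Hbb-b1, and without it the number of called members was again 0. The endoderm minus epiblast difference was also compared between E6.5 and E4.5 in 1 edgeR fit. No member passed, although 344 of 12244 genes did (2.81%), and the lowest adjusted p values were 0.1001 for Fgf8 and 0.1066 for Fgf3.

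The primitive streak-like cells at E6.5 had Fgf3, which was close to 0 in the epiblast-like cells. Of the 25 cells 24 came from a single embryo (embryo 2 without a plate name), so that 1 sum stood for the group. It has no spread of its own, and the p values take it to vary like the epiblast-like and endoderm-like sums. In this sum Fgf3 was at 98.82 CPM (1707 counts), against 0 to 0.1908 CPM in the 12 epiblast-like sums. It was the only member called of 10 tested, where 0.0201% of 14937 genes, 3 in all, were called, with a log2 difference of 11.24 ± 1.56 (adjusted p = 0.00695, edgeR). The call did not hold with the embryo as a block (adjusted p = 1), in DESeq2 or with sums of at least 1 cell, and the level of Fgf3 in this sum is the value of 1 embryo. Summed endoderm markers (23 genes, none at 0) came to 3510 CPM here, against 741.9 to 7053 CPM (median 1635) in the epiblast-like sums, and their part in these levels was not tested. Summed streak markers (15 genes) were at 1877 CPM in this sum, at 107.6 to 626 CPM in epiblast-like sums and at 359.1 to 2480 CPM in endoderm-like sums, where Mesp1, Mesp2, Tbx6 and Aplnr were at 0.

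The same streak-like sum held Fgfr1 at 106.5 CPM, above each of the 12 epiblast-like sums, and Fgf5 at 79.66 CPM, below each of them. It held Fgf15 at 39.25, Fgf8 at 25.65 and Fgf4 at 11.4 CPM. These other genes did not pass (adjusted p = 1, edgeR), and a single sum gives no spread for them.

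Levels of different genes were compared per kilobase (kb) of coding-transcript exon length, as CPM per kb. In E4.5 epiblast-like sums Fgf4 came first with a mean of 48.16 CPM per kb, above Fgfr1 at 12.74 in 5 of 5 embryos with no overlap. In PrE-like sums Fgf3 (33.99), Fgfr3 (27.57), Fgf10 (17), Fgf5 (12.66) and Fgfr2 (8.861 CPM per kb) followed each other, and neighbours in this order overlapped. At E5.5 Fgf4 (25.1) and Fgf5 (23.77) overlapped, and Fgf5 stood above Fgfr1 (12.84 CPM per kb) in 8 of 8 embryos. At E6.5 Fgf5 and Fgf8 led in epiblast-like sums (66.84 and 55.78 CPM per kb) and in endoderm-like sums (128.3 and 74.54), and again overlapped each other. At E3.5 the first 3 were Fgf10 (30.34), Fgf4 (25.02) and Fgfr1 (18.47 CPM per kb), which overlapped.

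Set against the sum of the 4 receptors per kb, Fgfr1 made up 89.1 ± 5.811% (SD, n = 5) in E4.5, 90.82 ± 4.193% (n = 8) in E5.5 and 80.05 ± 17.9% (n = 12) in E6.5 epiblast-like sums. It was the highest receptor in 5 of 5, 8 of 8 and 11 of 12 of these sums. At E3.5 it made up 74.23 ± 18.47% (n = 10) and was highest in 9 of 10, with Fgfr2 next at 23.81%. The PrE-like sums were made up differently, with Fgfr3 at 65.33 ± 7.735% and highest in 5 of 5, Fgfr2 at 21.23%, Fgfr4 at 8.405% and Fgfr1 at 5.028%. In E6.5 endoderm-like sums no receptor led in all embryos, Fgfr2 being highest in 3 of 7 (37.98 ± 36.42%) and Fgfr1 in 4 of 7 (33.97 ± 26.27%).

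Among the 6 ligands per kb, Fgf4 made up 85.52% in E4.5 epiblast-like sums, where it was highest in 5 of 5. At E5.5 the sum was shared by Fgf4 (37.85%), Fgf5 (36.26%), Fgf15 (14.68%) and Fgf8 (10.36%), and at E6.5 mostly by Fgf5 (49.47%) and Fgf8 (38.06%). Fgf10 (52.56%) and Fgf4 (45.67%) shared it at E3.5. In PrE-like sums Fgf3 led with 46.5% and was highest in 4 of 5, with Fgf10 at 23.38%.

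**Figure D3:**
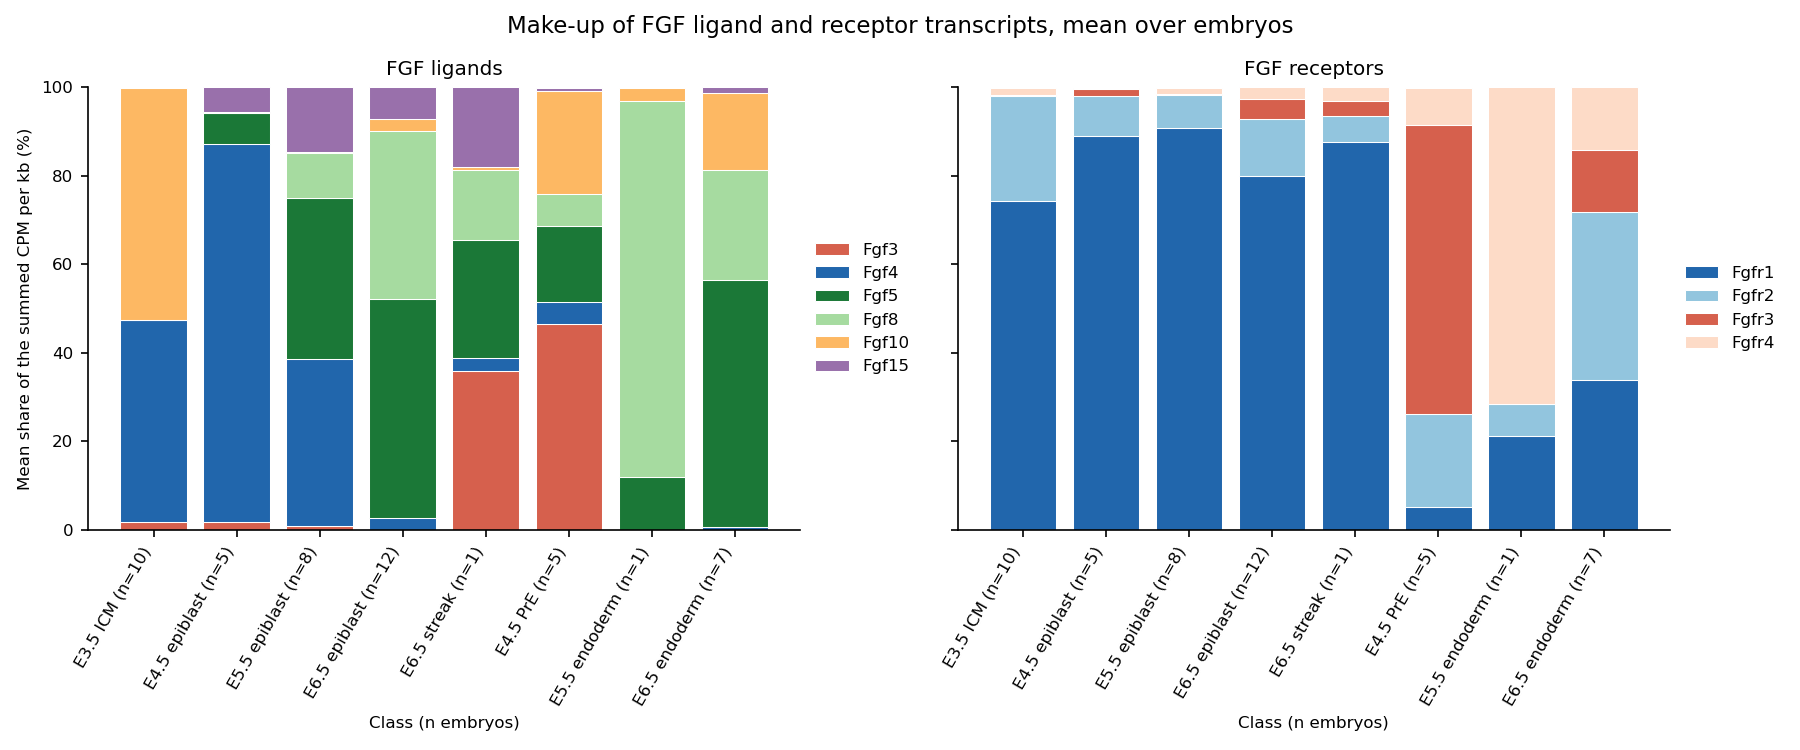
Mean share, in percent, of each ligand (first panel) and each receptor (second panel) in the summed CPM per kb of its kind, with 1 stacked bar for each group of cells. Fgfr1 fills 89.1% of the receptor bar of E4.5 epiblast-like sums and 5.028% of that of PrE-like sums, where Fgfr3 fills 65.33%.

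For the 7 genes called between the E4.5 lineages, the shares of cells went the same way as the sums. Counting cells with at least 10 CPM, Fgf4 was found in 50 of 99 cells at E3.5 (50.51%, 95% Clopper-Pearson interval 40.27 to 60.71%), in 23 of 23 E4.5 epiblast-like cells (85.18 to 100%) and in 7 of 82 PrE-like cells (8.537%, 3.501 to 16.8%). The interval covers counting error only, reads without molecular identifiers are not independent molecules, and cells of an embryo are not replicates. In single embryos at E3.5 the share with Fgf4 ranged from 0 to 66.67%. It was 75.68% of 259 cells at E5.5 and 24.58% of 179 epiblast-like cells at E6.5.

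PrE-like cells had Fgf3 in 68.29%, Fgf10 in 78.05%, Fgfr3 and Fgfr2 each in 65.85%, Fgfr4 in 28.05% and Fgfr1 in 17.07% of 82 cells. Thus Fgf3, Fgf10 and Fgfr3 were present in most PrE-like cells and were not carried by a few of them. Epiblast-like cells at E4.5 had Fgfr1 in 86.96%, Fgfr2 in 26.09%, Fgf15 in 26.09%, Fgf3 in 8.696%, and Fgfr3 and Fgf10 each in 4.348% of 23 cells. With every cell thinned to 200000 counts, which left out 13 shallower cells, and any count taken as detection, Fgfr2 was detected in 56.52% of these epiblast-like and 79.01% of the PrE-like cells. No cell at E3.5 had a count of Fgf5, 0 of 99, which allows a share of cells with a count of up to 3.03% but sets no limit on cells that express the gene, and the same held for Fgf8 and Fgf15.

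Fgf5 was found in 70.66% of E5.5 and 92.74% of E6.5 epiblast-like cells, and Fgf8 in 18.53% and 68.16%. Fgfr1 was found in 72.59% and 74.3%. Of the 41 E6.5 endoderm-like cells 73.17% had Fgf5, 75.61% Fgf10 and 48.78% Fgf8, and none had a count of Fgf3, which allows a share of cells with a count of up to 7.317%. Of the 25 streak-like cells 80% had Fgf3, 96% Fgfr1, 100% Fgf5 and 84% Fgf8. For Fgf5 and Fgf8 the shares and the sums went apart at E6.5. Their means were higher in endoderm-like than in epiblast-like sums (321 against 167.2 and 100.6 against 75.3 CPM), while their shares of cells were lower. In the streak-like sum both lay below the epiblast-like means (79.66 and 25.65 CPM). Their shares of streak-like cells were above those of all epiblast-like cells, but the streak-like cells came from embryos without a plate name. In epiblast-like cells of such embryos Fgf5 was found in 98.77% and Fgf8 in 87.65%. In those of plates P1 to P3 the shares were 87.76% and 52.04%. Against embryos without a plate name the streak-like share of Fgf8 was thus lower.

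**Figure D4:**
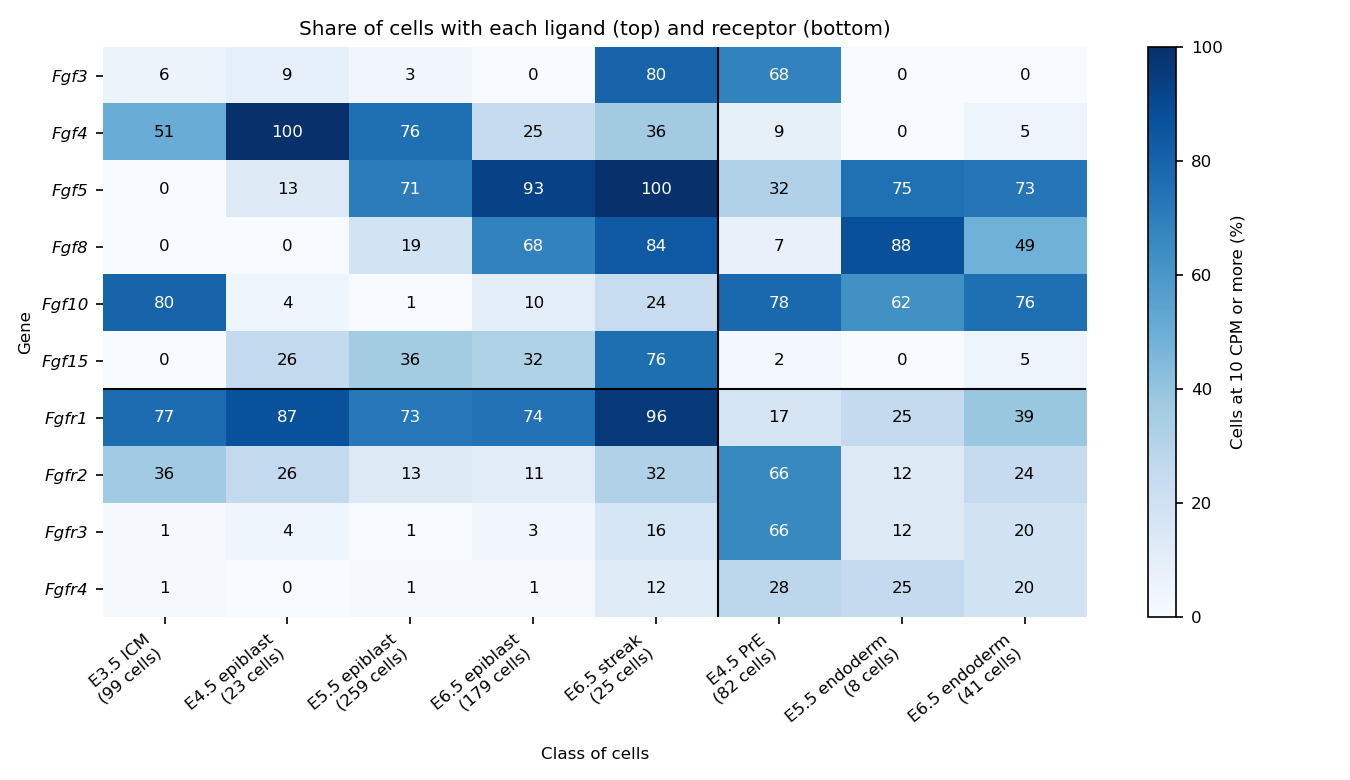
Share of cells, in percent, with at least 10 CPM of each gene (rows) in each group of cells (columns), written in each square. Fgf4 stands at 100% in E4.5 epiblast-like cells and 8.537% in PrE-like cells, and Fgfr3 at 65.85% in PrE-like cells and 4.348% in epiblast-like cells.

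Many cells held both a ligand and a receptor. How many would do so from the share of each gene alone was not computed, so the counts do not show that ligand and receptor go together. At E3.5, 40 of 99 cells had Fgf4 with Fgfr1, 64 had Fgf10 with Fgfr1 and 10 had Fgf4 with Fgfr2. Counted singly, Fgf4 was found in 50, Fgf10 in 79, Fgfr1 in 76 and Fgfr2 in 36 of these 99 cells. At E4.5, 20 of 23 epiblast-like cells had Fgf4 with Fgfr1, while of 82 PrE-like cells 47 had Fgf10 with Fgfr2, 47 had Fgf10 with Fgfr3 and 40 had Fgf3 with Fgfr3. PrE-like cells carried more kinds of receptor per cell, with 3 or more in 26 of 82 and a median of 2, against a median of 1 in each epiblast-like group, at E3.5 and in E6.5 endoderm-like cells. Of the 82 PrE-like wells 31 were labelled double, and 3 or more receptors were found in 14 of the 51 single wells (27.45%) and in 12 of the 31 double ones (38.71%). In single wells the median was again 2 in PrE-like cells and 1 at E3.5, in each epiblast-like group and in E6.5 endoderm-like cells, where 3 or more were found in 1 of 90, 0 of 16, 1 of 193, 2 of 172 and 0 of 38 wells (E3.5, the epiblast-like groups in order of age, and E6.5 endoderm-like cells). At E5.5, 151 of 259 epiblast-like cells had Fgf4 with Fgfr1 and 143 had Fgf5 with Fgfr1. At E6.5, 125 of 179 had Fgf5 with Fgfr1 and 97 had Fgf8 with Fgfr1, and 20 of 25 streak-like cells had Fgf3 with Fgfr1.

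The share of all cells of an embryo with Fgf4 and a given receptor together was compared between E3.5 (n = 10 embryos) and E4.5 (n = 5) for the 4 receptors. With Fgfr1 it was 39.32 ± 24.61% at E3.5 and 23.57 ± 8.039% at E4.5 (exact two-sided permutation p = 0.1938, adjusted over the 4 tests 0.3876). With Fgfr2 it was 7.529 ± 11.31% and 8.976 ± 6.087% (exact permutation p = 0.7659, adjusted 0.8132). The embryos of the 2 stages overlapped for both receptors.

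With Fgfr3 the share was 0 in all 10 embryos at E3.5 and 11.11, 0, 7.692, 2.941 and 4.167% in the 5 embryos at E4.5, so that 4 of 5 stood above E3.5 (exact two-sided permutation p = 0.007326, adjusted 0.0293). These were 5 cells, 4 PrE-like and 1 epiblast-like, and 2 of the 5 were wells labelled double. With single cells only the adjusted p was 0.2797. Fgfr3 itself reached 10 CPM in 1 of 99 cells at E3.5, where 5 of the 10 embryos held 3 or 4 cells, so that few cells there could hold both. With Fgfr4 the shares were 3.333% and 1.944% (exact permutation p = 0.8132).

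**Figure D5:**
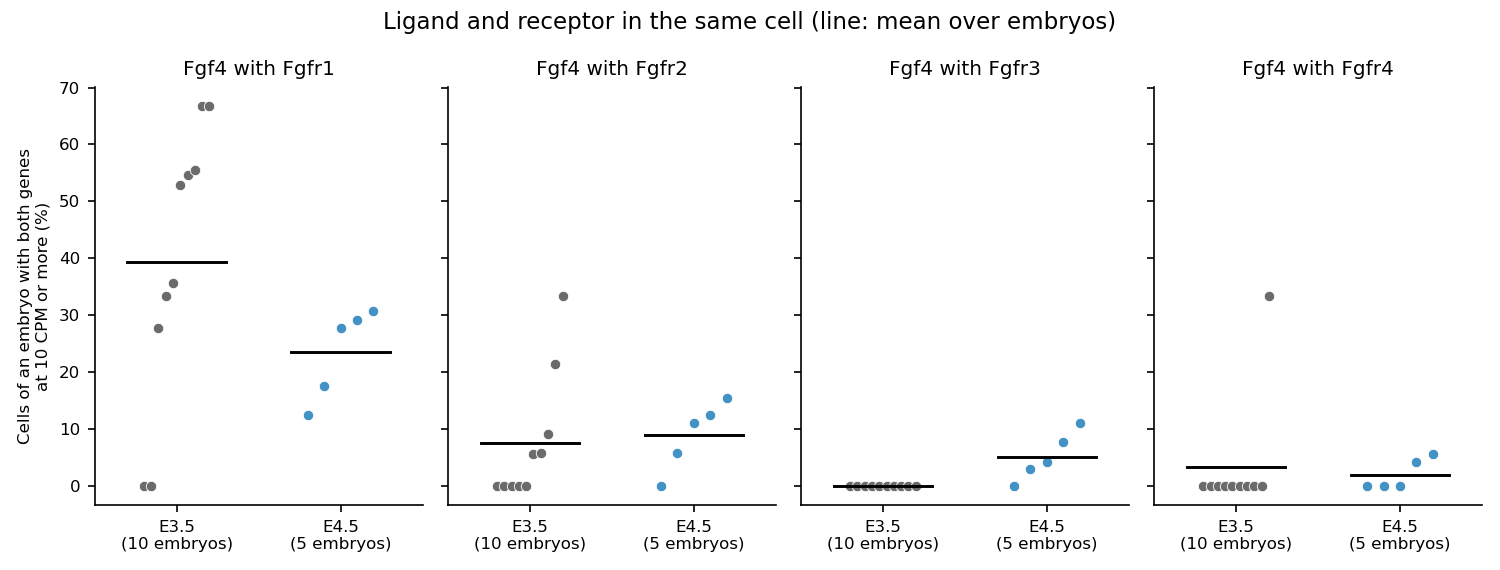
Share of cells, in percent, of each embryo with at least 10 CPM of Fgf4 and of the receptor named above the panel, at E3.5 (n = 10 embryos) and E4.5 (n = 5), with a bar at the mean. The points of the 2 stages overlap for Fgfr1, Fgfr2 and Fgfr4, and for Fgfr3 4 of 5 embryos at E4.5 lie above 0, the value of all E3.5 embryos.

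Within the 99 cells of E3.5, Spearman's rho between Fgf4 and Fgfr2 was -0.3073, and between Fgf4 and Fgfr1 it was 0.0007453. In the 5 embryos with at least 9 cells, rho of Fgf4 and Fgfr2 was -0.4178, -0.4596, -0.6395, -0.1443 and 0.1668, below 0 in 4 of them. In the 82 PrE-like cells, rho was 0.3835 between Fgfr2 and Fgfr3 and 0.3084 between Fgf3 and Fgf10. These cells share embryos, plates and depth, and the values are descriptions. Across the 49 sums, Pearson's r of log2(CPM + 1) was 0.8058 between Fgf5 and Fgf8, 0.7192 between Fgf3 and Fgfr3, 0.6293 between Fgf4 and Fgfr1 and -0.6676 between Fgf10 and Fgf15. The genes with the closest pattern to Fgf4 over these sums were Aff1 (r = 0.8466), Gdf3 (0.7853) and Gm13150 (0.7796). For Fgf5 they were Car4 (0.9366), Cmtm8 (0.8959) and Nt5dc2 (0.8933), for Fgf3 Aldh1a1 (0.8063), Gm11513 (0.7993) and Slc14a1 (0.7914), and for Fgfr3 Gm13270 (0.8799), Pdzd3 (0.8705) and Emx2 (0.8628). Groups of the same stage and lineage make up these 49 sums, so the r values carry the group differences.

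The remaining genes of the pathway were followed in 4 lists, of other ligands (14 genes with a row), co-receptors and heparan sulphate genes (20), adaptors and the cascade (20) and feedback genes and targets (18). At E4.5, where 8.05% of all genes tested were called, 4 of 13 tested co-receptor genes were higher in PrE-like cells and none lower, with a list median log2 difference of 0.34, against 0.08 over all genes. Flrt3, a membrane protein that binds FGF receptors, was at 706.7 ± 195.9 CPM in PrE-like and 11.42 ± 12.24 CPM in epiblast-like sums (log2 difference 5.86 ± 0.82, adjusted p = 0.0002615, edgeR). Klb, the co-receptor for Fgf15, was at 71.55 ± 14.64 and 0.9622 ± 1.399 CPM (5.92 ± 0.84, adjusted p = 0.0003064).

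Of 16 tested feedback genes and targets 3 were lower in PrE-like cells and none higher at E4.5 (list median -0.63, 8.05% of all genes called). These were the transcription factors Etv1, Etv4 and Etv5, whose genes respond to FGF signalling, with log2 differences of -5.34 ± 0.9, -2.4 ± 0.55 and -2.48 ± 0.37 (adjusted p = 0.001099, 0.008759 and 0.0004492, edgeR). Etv5 was at 41.16 ± 11.81 CPM in PrE-like and 226.2 ± 120.4 CPM in epiblast-like sums. None of the 16 tested adaptor and cascade genes passed (list median -0.11), and none of the other ligands could be tested.

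From E3.5 to E4.5 epiblast-like cells 7 of 17 feedback genes and targets rose and 1 fell, where 22.2% of all genes were called (list median 1.65, all genes 0), led by Etv4, which went from 0.7865 ± 1.579 to 94.44 ± 46.92 CPM (log2 difference 6.84 ± 1.09, adjusted p = 8.829e-06, edgeR). The heparan sulphate carrier Sdc4 fell from 695.6 ± 329.4 to 99.75 ± 41.94 CPM (-2.87 ± 0.52, adjusted p = 7.819e-05). Between E4.5 and E5.5 the feedback inhibitor Spry2 fell from 156.2 ± 77.02 to 32.9 ± 20.76 CPM (-2.29 ± 0.58, adjusted p = 0.01042), and at E6.5 it was at 296.1 ± 178.7 CPM (3.21 ± 0.54, adjusted p = 7.428e-05). The E6.5 value differed between embryos with and without a plate name. Spry2 was at 219.8 to 626.9 CPM (mean 393.2) in the 8 epiblast-like sums of plates P1 to P3. It was at 80.78 to 128 CPM (mean 101.9) in the 4 without a plate name, which include those titled E6.75. From E5.5 to E6.5, where 7.94% of all genes were called, 1 feedback gene rose and 1 fell of 17 tested. Along the endoderm, 1 of 16 feedback genes rose and 1 fell from E3.5 to PrE-like cells (13.4% of all genes called), and none rose and 2 fell from there to E6.5 (7.66%). None of these shares is read as particular to the list.

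At E6.5, Flrt3 was again an endoderm-like gene, at 590.9 ± 346.9 CPM against 29.77 ± 17.14 CPM in epiblast-like sums (log2 difference 4.36 ± 0.49, adjusted p = 1.659e-06, edgeR). Of 18 feedback genes and targets 2 were lower in endoderm-like sums and none higher, where 10.8% of all genes were called (list median -0.85, all genes -0.25), namely Dusp6, a phosphatase that acts on Erk, and Etv5 (-1.14 ± 0.34 and -1.08 ± 0.33, adjusted p = 0.03149 and 0.03236). In the streak-like comparison no gene of the 4 lists passed in edgeR.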

How the data were processed

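The authors trimmed paired reads of 100 bases (Trim Galore, 0.4.3 in the submitters' processing notes), aligned them to GRCm38 (HISAT2, 2.0.5 in those notes, while the study's methods name other versions of both), dropped alignments with a mapping quality below 20 and took counts per gene from SeqMonk, and the deposited table holds these raw counts for 721 cells. They kept cells with at least 4000 genes and under 10% mitochondrial reads, and removed trophoblast cells. Here, cells were clustered by an SC3-like consensus (8 clusters over all cells and 5 at E6.5, scikit-learn 1.9.0, Python 3.11.15), with 82 rows of FGF and pathway genes held out, and named by marker genes. Doublets noted in picking were kept, and no doublet caller was run. Counts were summed per group and embryo (at least 3 cells), normalized by TMM and tested in edgeR 4.0.16 (R 4.3.3) with quasi-likelihood fits, filterByExpr and Benjamini-Hochberg adjustment over all genes tested. The fits were checked on simulated data.

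Co-detection was compared by exact permutation of embryos. Genes with the closest pattern were the 3 with the highest Pearson's r of log2(CPM + 1). Alternatives were RLE normalization, no filter, DESeq2 1.42.0, single cells, sums of at least 1 cell, Ward clustering, E6.5 plates and titles taken separately or merged, the embryo as a block, left-out embryos, and other detection limits. The subsets without a plate name, the lower E4.5 limit, the comparison of differences, the left-out E6.5 sums, receptors per single well and Spry2 by plate were added after seeing the data. The members and gene lists were chosen with earlier results of these data known. The 2 groups of an embryo were paired by the embryo named in the titles. Deviations from group means correlated at r 0.03 to 0.15 within the 5 embryos at E4.5, and at 0.04 to 0.31 within the 7 at E6.5 that had both groups. Between different embryos the highest r was 0.02 at E4.5 and 0.3 at E6.5. The best match was the same embryo in 5 of 5 at E4.5 and in 4 of 7 at E6.5, so the pairing at E6.5 rests on the titles.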

Additional observations from a re-analysis of the deposited data

Results flagged for a closer look

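In 9 of 32 groups tested (4 to 10 embryos, mean of at least 5 CPM), the highest embryo stood apart from the others by Dixon's criterion. Chance meets this criterion in about 1 group in 20 where values are normally distributed. Whether the CPM values are so distributed was not tested, and all 9 flags were on the high side. The 9 groups are therefore listed and not read as an excess. At E3.5 these were Fgf4 at 207.8 CPM in embryo 7 of plate P9 (next 109.4), Fgf10 at 415.6 CPM in embryo 1 of plate P8 (next 185) and Fgfr1 at 222.9 CPM in embryo 3 of plate P8 (next 134). The last 2 sums held 3 cells each. At E4.5, Fgf5 reached 83.2 CPM in the epiblast-like sum of embryo 1 (next 4.17), while in PrE-like sums Fgf8 reached 34.85 CPM in embryo 5 (next 1.896) and Fgfr4 28 CPM in embryo 1 (next 10.6). In E6.5 endoderm-like sums, Fgf4 was at 35.59 CPM in embryo 8 of plate P3 (next 3.909), Fgfr2 at 197.9 CPM in embryo 7 of plate P3 (next 42.03) and Fgfr3 at 21.17 CPM in E6.75 embryo 1 (next 9.067).

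Cells that entered no test also held FGF transcripts. In the 8 E5.5 endoderm-like cells, of which 5 had been picked as visceral endoderm from 1 embryo, the pooled counts gave Fgf8 at 569.3, Fgf5 at 172.6, Fgf10 at 121.9, Fgfr1 at 7.747, Fgfr4 at 7.516 and Fgfr2 at 6.938 CPM. Fgfr3 was at 0.6938 and Fgf4 at 0.1156 CPM, and Fgf3 and Fgf15 had no count. In the 5 cells picked as visceral endoderm Fgf8 was at 444.1, 943.3, 314.2, 683.3 and 1020 CPM, and 7 of the 8 cells had at least 10 CPM of it. The 5 unnamed cells at E6.5 gave pooled levels of 104.6 CPM for Fgfr1, 52.68 for Fgf5, 48.27 for Fgfr3, 48.06 for Fgf8, 38.2 for Fgf15 and 23.93 for Fgfr2. These values have no replicate check.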

How the results depend on the processing

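Of 767 recomputed log2 differences of single genes 726 kept their direction and side of the limit, 15 passed only in the alternative, 12 no longer passed and 14 changed sign, and the cause of each change was not tested. Genes called moved beyond 1.5 times in 14 of the recomputed counts. Between the E4.5 lineages they were 1550 in DESeq2 and 1293 with a log2 limit of 1. From E5.5 to E6.5 they were 2623 without a filter and 243 with only the E6.5 embryos that have no plate name, and from E3.5 to PrE-like cells 2341 without a filter. From PrE-like to E6.5 endoderm-like cells they were 1394 in DESeq2 and 194, with 0 members, with the embryos that have no plate name. Between the E6.5 groups they were 544 without embryos titled E6.75, 377 in plates P1 to P3 and 580 with the embryo as replicate block. In the streak-like comparison they were 48 with sums of at least 1 cell, 1 with embryos merged with P1, 0 with the replicate block and 5 without the haemoglobin-rich sum, and members called were 0 with DESeq2, sums of at least 1 cell or the block. At E6.5, 1 member was called between endoderm-like and epiblast-like sums with RLE (among 1631 genes called), sums of at least 1 cell (1942) or Ward clustering (1463). The same number was called without E6.75 (544 genes), or without embryo 7 (1494) or embryo 9 (1698) of plate P3. With DESeq2 (1958 genes) or with no plate name only (1217), 2 members were called. The block changed no other call of a member.

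Signs turned as follows. Leaving out each embryo gave -0.67 to 0.71 for Fgf3 from E3.5 to E4.5 epiblast-like cells, and from E4.5 to E5.5 -2.79 to 3.66 for Fgf10 and -0.12 to 0.12 for Fgfr1, with 1 to 2 members called. In the same step Fgf10 was 3.81 with single cells and Fgfr1 0.08 with Ward clustering. Fgf15 from E5.5 to E6.5 was -0.03 with Ward clustering and -0.11 in plates P1 to P3. Fgf10 from PrE-like to E6.5 endoderm-like cells was -0.41 with no plate name only. Between the E6.5 groups Fgf3 was 0.23 in DESeq2, Fgf8 -0.6 with the replicate block, and with no plate name only Fgf5 was -0.69, Fgf8 -1.72 and Fgfr2 -0.98. The difference in co-detection with Fgf4, E3.5 minus E4.5 in percentage points, was 21.42 at 1 CPM (exact permutation, adjusted p = 0.04662) and -0.03919 at 50 CPM for Fgfr1, 3.69 at 50 CPM and 2.52 after thinning for Fgfr2, -2.533 at 50 CPM and -3.766 in single cells for Fgfr3, and -2.857 in single cells for Fgfr4.

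Thinning with any count taken as detection, in place of 10 CPM, moved 16 of 100 shares of cells outside their interval. Sums of 3 cells, the single streak-like sum and genes with few counts limit the precision.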
